A study of Mus musculus with 2 samples.

Results

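The 8 genes Snai1, Snai2, Twist1, Twist2, Zeb1, Zeb2, Vim and Fn1, which encode transcription factors and markers of the epithelial-mesenchymal transition (EMT), were measured in prostaspheres with and without Sox9. They were chosen by name, as every non-control probe on both arrays that carries one of these symbols, which gave 8 of 27827 gene names and 15 of 41174 probes. All 8 genes had a probe bright enough to be tested, and they hold 11 of the 22731 tested probes. Prostaspheres are spheres that prostate epithelial cells form in Matrigel. On the first array, here the genotype comparison, RNA of wild-type cells treated with tamoxifen (TAM) was labeled with Cy5 and RNA of ERCre+/+Sox9flox/flox cells treated with TAM, whose genotype the labels give as Sox9 null, with Cy3. In the treatment comparison, on the other array, RNA of floxed cells given vehicle was labeled with Cy5 and a further RNA of floxed cells given TAM with Cy3. The labels give both RNAs of the treatment comparison the genotype Sox9 null, so there only the treatment tells them apart. Each of the 4 RNAs has its own sample number in the labels, and nothing in them says whether cultures were pooled. All cells had the C57/Bl6J background and came, per the labels, from urogenital sinus epithelium of embryos at 16 days post conception, whereas the methods describe prostaspheres from adult prostate. All were kept in Matrigel with dihydrotestosterone for 6 days and then in 5 µM TAM or vehicle for 6 more. The Cre is fused to an estrogen receptor domain that TAM activates and, per the methods, is expressed from the Rosa26 locus, so it is not restricted to a cell type. Animals of the C57/Bl6J strain and with a single floxed allele beside the Cre were also harvested, and the labels do not say which gave the wild-type cells.

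In an epithelial-mesenchymal transition, epithelial cells lose their junctions and gain the shape, motility and matrix of mesenchymal cells. The zinc finger repressors Snail (Snai1), Slug (Snai2), Zeb1 and Zeb2 bind E-box sequences in promoters of junction genes such as E-cadherin, and the basic helix-loop-helix factors Twist1 and Twist2 act beside them. Vimentin (Vim), an intermediate filament protein, and fibronectin (Fn1), a protein of the extracellular matrix, are the usual markers of the mesenchymal state. Slug is also expressed by basal epithelial cells, and Vim, Fn1, Zeb1, Zeb2 and both Twist genes are expressed by stromal cells.

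The sequences on which the main values rest are shown first, 5′ to 3′ as the array file gives them. For Snai2, the member with the largest difference, 30 of the 60 bases of its probe (mm9, chromosome 16, 14709361 to 14709420, plus strand) are shown. For Vim, the member whose log2 ratio changed sign most widely between the arrays, 30 of the 60 bases of the brightest probe (mm9, chromosome 2, 13504232 to 13504291, plus strand) are shown. The Fn1 probes are shown whole, because they are the only set of several bright probes for a member and lie at bases 7189 (probe 1), 6568 (probe 2) and 2688 (probe 3) of the transcript. No part is singled out in capitals.
Snai2: tagccacgcctatattcaaccagaatactt
Vim: cgcaagatagatttggaatagaaagaagct
Fn1 probe 1: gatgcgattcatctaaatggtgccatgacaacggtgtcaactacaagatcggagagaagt
Fn1 probe 2: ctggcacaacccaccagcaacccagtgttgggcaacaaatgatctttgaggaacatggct
Fn1 probe 3: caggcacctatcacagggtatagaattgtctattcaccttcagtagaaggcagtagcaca
All Fn1 probes lie on the minus strand of chromosome 1 in mm9, at 71637422 to 71639659, 71644127 to 71644186 and 71673888 to 71674646. Probes 1 and 3 thus span 2238 and 759 bases of the genome with 60 bases of sequence, and join sequence from separate exons.

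Brightness is given as the scanner read it, minus local background. Cy5 was brighter than Cy3 over the whole array, with a median ratio of 1.86 on the genotype array and 1.85 on the treatment array, so brightness compares RNAs of the same dye and not the dyes with each other. The log2 ratio, computed after background correction and loess normalization, removes this difference. Every log2 ratio is Sox9-expressing (Cy5) over Sox9-deleted (Cy3) RNA, so a positive value means a higher level with Sox9, and the mean over both arrays (n = 2) was tested against 0 with limma. This direction rests on the titles and treatments in the labels, whose source names call the Cy5 RNAs SOX9 and the Cy3 RNAs Ctrl and were set aside. Read as the deleted gene, those names would reverse each sign. No array had the dyes swapped, so a preference of a probe for a dye and a difference between the RNAs cannot be told apart. The targeted gene was higher with Sox9, as its brightest probe read 2199 and 1476 in the wild-type and vehicle RNAs and 105.01 and 115 in the 2 deleted RNAs, with log2 ratios of 2.69 and 2.37. A second Sox9 probe went the same way (1.18 and 1.27), and the third, the most distal, the opposite way. The third had only a bound in the genotype comparison, at least 1.995-fold lower in wild-type RNA, where it was not well above background, and a log2 ratio of -1.22 in the treatment comparison. Each comparison has 1 array. A limma p over both weighs the spread between these 2 arrays together with a prior variance shared by all tested probes. It measures no spread between replicates of a comparison.

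**Figure D1:**
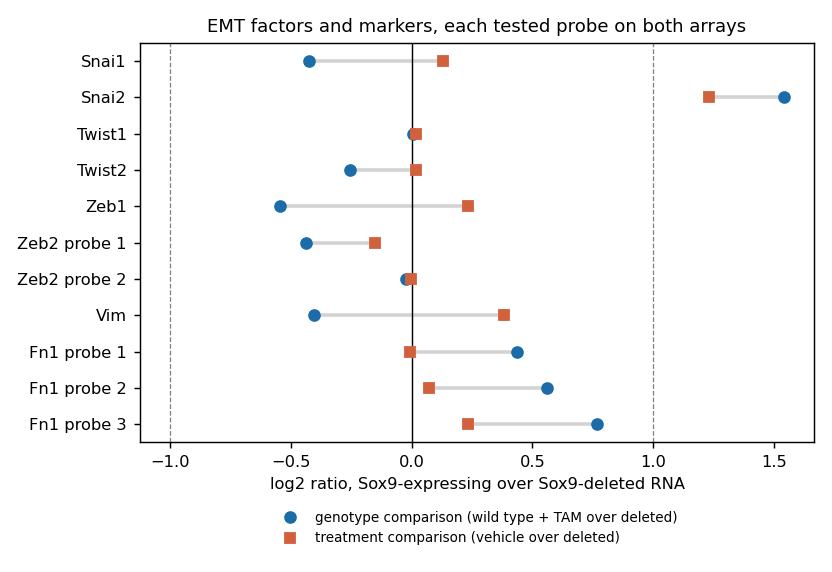
Log2 ratio (x axis, Sox9-expressing over Sox9-deleted RNA) of the 11 tested probes of the 8 genes, with circles for the genotype comparison, squares for the treatment comparison and dashed lines at 2-fold. Snai2 lies beyond 2-fold on both arrays, at 1.54 and 1.23, and the other probes lie between -0.55 and 0.77.

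Snai2 was the member with the largest difference, and was higher with Sox9 on both arrays. Its brightness was 4181 in the wild-type RNA and 3179 in the vehicle RNA, both labeled with Cy5, and 679 and 672 in the deleted RNAs of the genotype and treatment comparisons, both labeled with Cy3. The deleted RNAs lay close to each other and the Cy5 RNAs lay above them by far more than the general difference of the dyes. The log2 ratios were 1.54 and 1.23, which are 2.91-fold and 2.35-fold, with a mean of 1.39 ± 0.22 (SD, n = 2). This mean did not pass the threshold of 0.05 in limma after Benjamini-Hochberg adjustment over all tested probes (adjusted p = 0.0921, SE 0.11). The mean of 37 of 15131 tested genes was higher. Snai2 was the 1 member of 8 past 2-fold in the same direction on both arrays, where 0.535% of all tested genes were past 2-fold the same way and 0.377% were higher. With the arrays scaled to 1 spread, its log2 ratio in the treatment comparison was 0.90, short of 2-fold, and with median centring in place of loess its limma adjusted p was 1.8e-07, against up to 0.298 over the other alternatives. Median centring left the median of all tested probes on the treatment array at 0.38 and gave all probes the same variance. Of the 522 probes it called, 491 were higher with Sox9, so this p carries a general shift.

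The epithelial markers past 2-fold with Snai2 were those of basal cells. Of 8 epithelial markers tested, 5 were higher on both arrays, beside 33.8% of all tested genes. Among these 5, Epcam (0.46 and 0.37) and Krt19 (0.05 and 0.18) were higher by less than 2-fold. The others, Trp63, which encodes the basal factor p63, and the basal cytokeratins Krt5 and Krt14, were past 2-fold, with mean log2 ratios of 1.60 ± 0.07, 2.02 ± 0.15 and 1.96 ± 0.15 (SD, n = 2). The luminal cytokeratins Krt18 (-0.28 and -1.01) and Krt8 (0.01 and -0.74) had the lowest means of the list. The brightness of Trp63 was 1662 and 1463 in the Cy5 RNAs and 218 and 233 in the deleted RNAs, so that both Cy5 RNAs stood well above both deleted RNAs, as for Snai2. Fewer cells of a type and less RNA per cell cannot be told apart in RNA from whole cultures, and the part of the share of basal cells in the difference of Snai2 was not tested.

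Snai1, the other Snail factor measured among the members, did not follow Snai2. Its only probe (mm9, chromosome 2, 167368073 to 167368132) had a brightness of 153 in the wild-type RNA, 236 in the vehicle RNA, and 139 and 113 in the deleted RNAs. The log2 ratios were -0.43 (genotype) and 0.13 (treatment) and averaged -0.15 ± 0.39 (SD, n = 2), with an adjusted p of 0.661 in limma. The signs were opposite and the mean was smaller than the spread between arrays.

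Zeb1 and Zeb2 differed from each other in sign on the treatment array. Zeb1, measured by 1 probe, had a brightness of 319 in the wild-type and 612 in the vehicle RNA, against 283 and 267 in the deleted RNAs. Its log2 ratios were -0.55 and 0.23, averaging -0.16 ± 0.55 (SD, n = 2, adjusted p = 0.730 in limma). Within Cy5 the vehicle RNA stood above the wild-type RNA, and within Cy3 the deleted RNAs lay close together. Zeb2 had 5 probes on chromosome 2, of which 2 were well above background in every RNA and 3 in none. On the brighter of these 2 (mm9, 44842774 to 44842833) the brightness was 294, 376, 239 and 225 in the wild-type, vehicle and the 2 deleted RNAs. Its log2 ratios were -0.44 and -0.15, averaging -0.29 ± 0.20 (SD, n = 2, adjusted p = 0.285 in limma). Zeb2 was thus the 1 member of 8 that was lower with Sox9 on both arrays, as were 33.7% of all tested genes. With median centring its treatment log2 ratio was 0.30. The dimmer probe had log2 ratios of -0.025 and -0.0035 at a brightness of 31.6 to 54.0, where the constant of 50 added to every brightness pulls ratios toward 0.

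The Twist genes were dim or little different. Twist1 (mm9, chromosome 12, 34644411 to 34644470) had a brightness of 25.1, 23.4, 17.9 and 18.0 in the wild-type, vehicle and the 2 deleted RNAs, and the probe failed the test for being well above background in wild-type RNA. Its log2 ratios of 0.0060 and 0.017 are therefore of little weight, and no difference was detectable at this brightness (limma adjusted p = 0.945). Both turned negative with median centring. Twist2 (mm9, chromosome 1, 93744519 to 93744577) was well above background in all 4 RNAs, with a brightness of 328, 436, 221 and 226. Its log2 ratios were -0.25 and 0.019 and averaged -0.12 ± 0.19 (SD, n = 2), with an adjusted p of 0.585 in limma. The second was negative in 3 of the alternatives tried, which were an offset of 10, no background subtraction and the scanner software's processed signals.

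**Figure D2:**
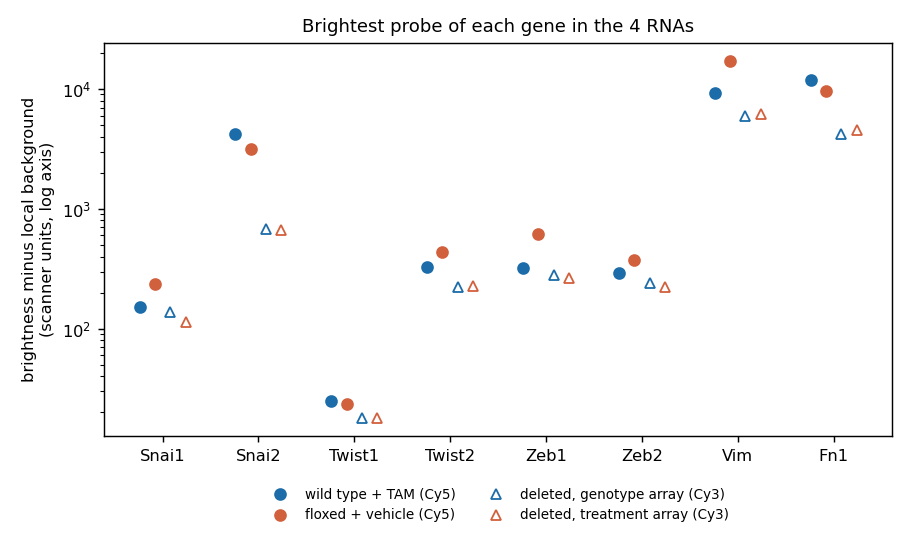
Brightness minus local background (y axis, log scale, scanner units) of the brightest probe of each gene in the 4 RNAs, with filled circles for the Cy5 RNAs and open triangles for the Cy3 RNAs. The 2 deleted RNAs lie close together for Snai2 (679 and 672) and Vim (5935 and 6137) and further apart for Snai1 (139 and 113), and the Cy5 RNAs lie furthest apart for Vim (9201 and 17257) and Zeb1 (319 and 612).

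Vim, the mesenchymal filament gene, had log2 ratios of similar size and opposite sign on the arrays. The brightness of its probe was 9201 in the wild-type RNA and 17257 in the vehicle RNA, against 5935 and 6137 in the deleted RNAs. The deleted RNAs of both arrays were nearly equal, and the vehicle RNA stood apart from the wild-type RNA. The log2 ratios were -0.40 and 0.38, averaging -0.01 ± 0.56 (SD, n = 2, adjusted p = 0.983 in limma). The sign on each array was the same under every alternative that gave a value for it, and with median centring the treatment log2 ratio was 1.12. A second Vim probe (mm9, chromosome 2, 13498766 to 13498825) was not well above background in any RNA.

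Fn1 was higher with Sox9 in the genotype comparison on all 3 probes. In the treatment comparison it was close to equal on probes 1 and 2 and higher on probe 3. Probe 1, which was spotted 10 times on each array with 9 and 10 spots used, had a brightness of 11827 in the wild-type RNA, 9556 in the vehicle RNA, and 4228 and 4589.9 in the deleted RNAs. Its log2 ratios were 0.44 and -0.0087, with an SD between spots of 0.046 and 0.029, so the arrays differed by far more than the spots of an array did. The mean was 0.21 ± 0.31 (SD, n = 2, adjusted p = 0.472 in limma). Probe 2 had log2 ratios of 0.56 and 0.07 (limma adjusted p = 0.360), and its brightness was 4659.9, 2758, 1566 and 1335 in the wild-type, vehicle and the 2 deleted RNAs. Probe 3, nearest to the start of the transcript, had log2 ratios of 0.77 and 0.23 (limma adjusted p = 0.249) with a brightness of 1336, 836, 373 and 365. On both arrays the log2 ratio was lowest on probe 1 and highest on probe 3, so the probes disagreed in size. Labeling started from oligo dT at the end of the transcript, and the part of distance from that end was not tested. With median centring the treatment log2 ratio of probe 1 was 0.68. With loess, the treatment log2 ratio averaged over the 3 probes was 0.10.

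Read together, 0 of the 11 tested member probes passed an adjusted p of 0.05 in limma, where 0.00880% of all tested probes did. The brightest probe of the targeted gene Sox9 did not pass either (adjusted p = 0.0627 in limma). Of the 2 probes of the array that passed, 0 were higher with Sox9, so a probe that did not pass may still differ. At an unadjusted p under 0.05 limma called 3 of the 11 (Snai2, the brighter Zeb2 probe and Fn1 probe 3), where it called 17.5% of all tested probes. The methods' t-test called 0 of the 11 at that level, where it called 8.47% of all, and 0 of all tested probes after adjustment. On both arrays Snai2 and the dim Twist1, 2 of the 8 genes, were higher with Sox9, where 33.8% of all tested genes were. Lower in the genotype and higher in the treatment comparison were 4 of 8, Snai1, Twist2, Zeb1 and Vim, against 18.4% of all tested genes. The reverse held for Fn1 alone, against 14.0%. Over the 8 genes the median was -0.33 on the genotype array and 0.07 on the treatment array, beside -0.01 and 0.01 over all tested genes. Median centring raises the median of all tested genes on the treatment array to 0.42, and with it Snai2 and Fn1 were the 2 genes higher on both arrays, Twist1 the 1 lower on both and 5 were lower in the genotype and higher in the treatment comparison. Since each comparison has 1 array, the difference between the comparisons was not tested.

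The arrays were also compared within each dye. On normalized log2 levels of a single dye, Vim was 0.79 higher in the vehicle than in the wild-type RNA, Zeb1 0.70, Snai1 0.35, Twist2 0.28 and Zeb2 0.21, whereas Snai2 differed by -0.39 and Fn1 by -0.37. The same difference between the 2 deleted RNAs was 0.01 for Vim, -0.08 for Zeb1, -0.21 for Snai1, 0.01 for Twist2, -0.08 for Zeb2, -0.08 for Snai2 and 0.08 for Fn1. Twist1, which is at or near background, differed by 0.0087 and -0.0026. For all 8 genes the Cy5 difference was the larger in size, as it was for 70.2% of all tested genes. Over all tested genes the middle 90% of the Cy5 differences lay between -0.35 and 0.58 and that of the Cy3 differences between -0.20 and 0.15. Vim and Zeb1 thus lay above the first range, Snai2 and Fn1 just below it, and Snai1 below the second.

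**Figure D3:**
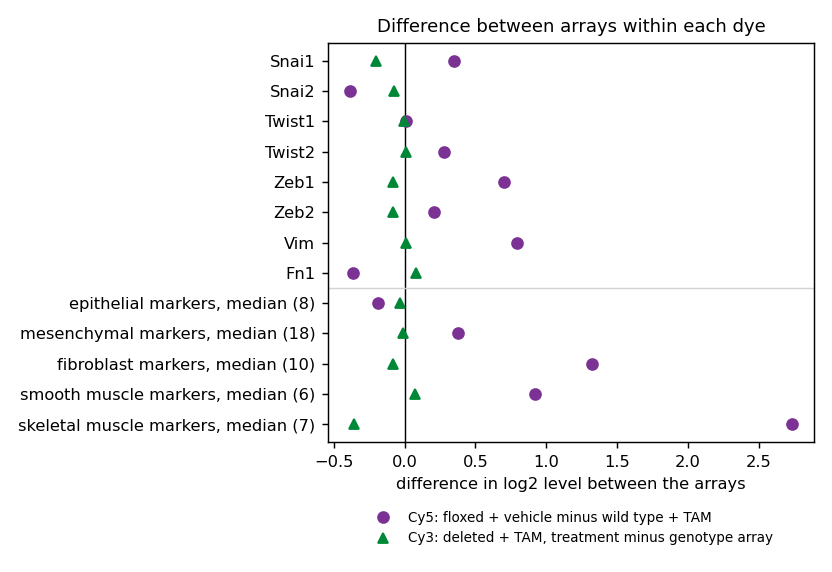
Difference in normalized log2 level between the arrays (x axis) for each of the 8 genes and as the median of 5 marker lists, with circles for Cy5 (vehicle minus wild-type RNA) and triangles for Cy3 (the 2 deleted RNAs, treatment minus genotype array). Circles reach 0.79 for Vim, 1.32 for the fibroblast and 2.73 for the skeletal muscle markers, while the triangles of the 8 genes stay within 0.21 of 0.

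The fibroblast, smooth muscle and skeletal muscle markers moved as lists between the Cy5 RNAs in the same direction as Vim and Zeb1. Their median differences in log2 level were 1.32, 0.92 and 2.73, and those of the endothelial and leukocyte markers 0.03 and -0.07. Within the smooth muscle list Smtn went the other way, at -0.14. Of the 3 tested leukocyte markers Cd14 differed by 0.74, and Cd68 and Csf1r by -0.07 and -0.09. All 10 fibroblast markers were well above background in every RNA, and their summed brightness was 41622 in the wild-type RNA, 120070.5 in the vehicle RNA, and 36999.5 and 32580 in the deleted RNAs. Against 18.4% of all tested genes, 9 of these 10 were lower in the genotype and higher in the treatment comparison. Among them, Col3a1, a fibrillar collagen, had log2 ratios of -1.62 and 1.13, Fap, a protease of activated fibroblasts, -0.18 and 1.40, and Postn, a matrix protein, -0.45 and 0.71. Dcn, which encodes decorin, was the exception, at -0.77 and -0.14. The 6 smooth muscle markers, all well above background in every RNA, summed to 20247, 49505, 13974 and 15896 in the wild-type, vehicle and the 2 deleted RNAs, with Cnn1 (0.29 and 1.54) and Smtn (0.68 and 0.63) the highest and Tagln (-0.71 and 0.24) and Des (-0.42 and 0.11) the lowest. The 7 tested of 9 skeletal muscle markers summed to 565, 11731, 1919.6 and 1235, but 4 of the 7 did not stand well above background in the wild-type RNA and have only a bound in the genotype comparison. Of those with the highest means, Myh3, at background there, had a treatment log2 ratio of 2.60, and Actc1 had -0.12 and 1.41. Of those with the lowest, Myl1 and Myog were at least 8.15-fold and 1.90-fold lower in wild-type than in deleted RNA, with treatment log2 ratios of 2.26 and 1.06. In each of these lists the vehicle RNA stood above the wild-type RNA. Under median centring, arrays scaled to 1 spread, the scanner software's signals and the authors' values, 9 or 10 of the 10 fibroblast markers were lower in the genotype and higher in the treatment comparison, as were the 3 skeletal muscle markers that were well above background in every RNA. All 8 epithelial markers were also well above background in every RNA, as the fibroblast and smooth muscle markers were, so this does not set a cell type apart. The endothelial marker Pecam1 and the leukocyte marker Ptprc were not well above background in any RNA. The 3 tested of 5 endothelial markers, the VEGF receptor Kdr (0.084 and -0.095), von Willebrand factor Vwf (-0.12 and -0.15) and the endothelial cadherin Cdh5 (-0.12 and -0.16), summed to between 148 and 258. All 3 were well above background in every RNA. The 3 tested of 8 leukocyte markers, the macrophage growth factor receptor Csf1r (0.03 and -0.12), the lipopolysaccharide co-receptor Cd14 (-1.04 and -0.05) and the lysosomal protein Cd68 (-0.69 and -0.77), summed to between 2156 and 3811. These 3 leukocyte markers were also well above background in every RNA. The part of stromal and muscle cells in the values of Vim, Zeb1, Snai1 and Twist2 was not tested.

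**Figure D4:**
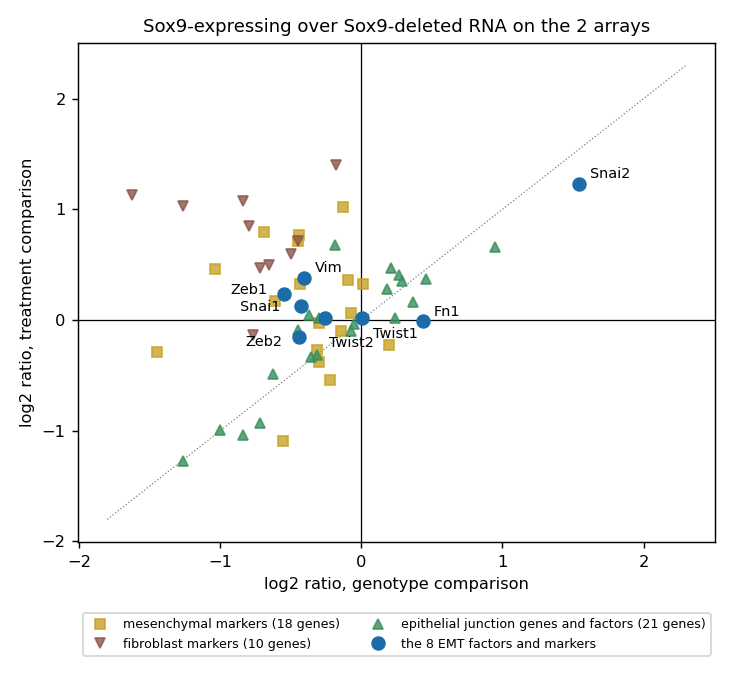
Log2 ratio in the genotype comparison (x axis) against that in the treatment comparison (y axis), each for the brightest tested probe of a gene, for the 8 genes (circles), 18 mesenchymal markers (squares), 10 fibroblast markers (triangles pointing down, Postn also among the squares) and 21 epithelial genes (triangles pointing up). Snai2 lies near the dotted line of equal values at 1.54 and 1.23, while Vim (-0.40 and 0.38), Zeb1 (-0.55 and 0.23) and 9 of the 10 fibroblast markers lie in the upper left.

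A wider list of mesenchymal markers, 18 genes all of which were tested, had 7 that were lower on both arrays with Sox9 and 1 that was higher, and 9 lower in the genotype and higher in the treatment comparison. Over all tested genes these shares were 33.7%, 33.8% and 18.4%, in that order. The median of the 18 markers was -0.31 on the genotype array and 0.12 on the treatment array, and 0 passed an adjusted p of 0.05 in limma. At an unadjusted p under 0.05 were 4 of the 18, near the share of 19.5% over all tested genes. With median centring the split was 2 lower and 2 higher on both arrays, with 14 of opposite sign. The highest means were those of S100a4, a calcium-binding protein of motile cells (-0.13 and 1.02), and Cdh2, which encodes N-cadherin (0.01 and 0.33). The lowest were Mmp2, a matrix metalloproteinase (-1.45 and -0.29), and Cd44, the hyaluronan receptor (-0.55 and -1.09). N-cadherin, the cadherin that replaces E-cadherin in the transition, was thus dim, with a brightness of 23.8 to 66.1. Among relatives of vimentin and their partners, 5 of 6 genes were tested, with Prph (0.03 and 0.53) and Synm (0.02 and 0.21) the highest and Nes (-0.61 and 0.17) and Des the lowest.

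Other transcription factors of the transition were 14, of which 11 were tested. With Sox9, 5 of these were higher on both arrays, 1 was lower on both and 0 were past 2-fold. Of all tested genes 33.8% were higher on both, 33.7% lower on both and 0.535% past 2-fold the same way. The gene named Tcf3 on the array had the highest mean (0.54 and 0.44), followed by Foxc1 (0.24 and 0.39). The array uses some older gene names, and which gene its Tcf3 denotes was not checked. Id3, an inhibitor of helix-loop-helix factors (-0.49 and 0.18), and the homeobox gene Prrx2 (-0.51 and 0.33) had the lowest, with the same signs as Vim and Zeb1. Of 13 genes of the TGF-beta pathway and other signals that act on the transition, inhibitors of the pathway among them, 12 were tested, 4 higher and 5 lower on both arrays, with 0 past 2-fold. These counts stand beside the same shares of all tested genes. With median centring 7 of the 12 were higher and 0 lower on both arrays. Tgfb2, a TGF-beta ligand (0.09 and 0.84), and Skil, an inhibitor of Smad signaling (0.42 and 0.22), were the highest, and Smad3 (-0.30 and -0.31) and the receptor Tgfbr2 (-0.38 and -0.22) the lowest. In both lists 0 genes passed an adjusted p of 0.05 in limma. At an unadjusted p under 0.05 were 2 of 11 and 4 of 12, beside the 19.5% of all tested genes.

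The epithelial side of the transition went both ways. Of 22 junction genes and factors that keep the epithelial state, 21 were tested. With Sox9, 8 of them were higher on both arrays and 10 were lower on both, and the median was -0.18 on the genotype array and 0.02 on the treatment array. In limma 0 of them passed an adjusted p of 0.05, and 14 of the 21 had an unadjusted p under 0.05, in either direction, beside the 19.5% of all tested genes. Cdh1, which encodes E-cadherin and is the textbook target of Snail, Slug and Zeb, had a log2 ratio of -0.31 and -0.32, averaging -0.32 ± 0.005 (SD, n = 2, adjusted p = 0.190 in limma). The tight junction gene Cldn3 was past 2-fold lower on both arrays (-1.27 and -1.27, limma adjusted p = 0.0773), and the polarity gene Llgl2 was next (-1.003 and -0.995). The desmosomal gene Dsp (0.94 and 0.66) and Epcam, an adhesion protein of epithelia (0.46 and 0.37), were the highest. With median centring 8 were higher and 7 lower on both arrays. The genes of this list thus did not share a direction.

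Because these factors bind the E-box CAGGTG, which reads CACCTG on the other strand, the 250 bases before the transcript start were searched for it on both strands in RefSeq promoters (GRCm38.p6). Of the 22 epithelial genes 15 had a promoter in the table. Of these, 9 held the motif in at least 1 promoter, where 5252 of all 27025 genes did. By promoter it was 11 of 22, which is 50%, where 17.2% of all 32851 promoters held it. Promoters of the same gene can overlap, as those of Crb3 do, so they are not separate observations. Cdh1 was not among the 15, so its promoter was not searched. Of the 8 tested genes with the motif, Sox9-expressing RNA was lower on both arrays for 5 and higher on both for 1, and of the 6 tested without it, lower for 2 and higher for 3. Of all tested genes 33.7% were lower on both arrays and 33.8% higher on both. Crb3, 1 of the 5, was not well above background in either Cy5 RNA (log2 ratios -0.07 and -0.10), so its sign carries little weight. Whether the motif bears on the direction was not tested. Of the members, 5 had a promoter in the table and Snai1 alone held the motif. Snai2, Zeb1 and Fn1 had none in the table and were not searched. A match describes the letters of the window and not a bound site. Cldn4, a tight junction gene with log2 ratios of -0.84 and -1.04, and Epcam are shown because they hold the motif and went opposite ways, and Snai1 because it is the member that holds it, with the motif in capitals. The windows are chr2:167537945-167538194, plus strand, for Snai1, chr5:134946935-134947184, minus strand, for Cldn4, and chr17:87635729-87635978, plus strand, for Epcam. Cldn4 was chosen after its values were seen.
Snai1: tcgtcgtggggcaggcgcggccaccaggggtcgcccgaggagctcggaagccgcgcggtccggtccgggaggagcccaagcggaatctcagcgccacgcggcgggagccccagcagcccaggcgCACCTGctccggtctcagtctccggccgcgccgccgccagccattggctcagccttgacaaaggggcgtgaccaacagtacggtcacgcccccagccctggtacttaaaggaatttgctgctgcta
Cldn4: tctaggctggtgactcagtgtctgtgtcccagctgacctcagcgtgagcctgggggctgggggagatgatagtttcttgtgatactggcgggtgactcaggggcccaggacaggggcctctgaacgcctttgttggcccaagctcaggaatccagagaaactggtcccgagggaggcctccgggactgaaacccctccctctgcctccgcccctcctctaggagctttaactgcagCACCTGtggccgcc
Epcam: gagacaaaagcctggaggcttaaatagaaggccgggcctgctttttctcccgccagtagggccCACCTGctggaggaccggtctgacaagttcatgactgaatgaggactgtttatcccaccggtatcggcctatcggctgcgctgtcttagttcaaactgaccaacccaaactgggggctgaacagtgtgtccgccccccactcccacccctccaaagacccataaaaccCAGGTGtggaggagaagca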

How the data were processed

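The authors deposited scanner output of 2 Agilent arrays on 1 slide from 1 scan. Per the file headers it holds the mean intensity and local background median intensity of each spot, and the software's processed intensity and log10 ratio. A table of the authors' processed values was deposited too, whose values are log2 ratios (slope on the log10 ratio 3.12 and 3.14, correlation across spots 0.983 and 0.987). The submitters' processing notes name limma, and the steps are not given in the sources used here. Probe coordinates are mm9, per the file headers.

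Control spots (1639 of 45018) and outlier spots (126 and 130) were left out. Intensities were corrected with normexp (offset 50) and normalized by loess within arrays in limma 3.58.1 (R 4.3.3), and spots of a probe were averaged. Log2 levels per dye followed Aquantile normalization. A probe was tested where both arrays put it well above background in Cy5, or both in Cy3. The test was lmFit with eBayes, 2-sided, and p-values were adjusted by Benjamini-Hochberg over the 22731 probes tested. The test has 1 residual degree of freedom, and a prior of 2.77. Its code was tested on simulated data. The brightest tested probe stood for a gene. The number of saturated spots was 0, and the number of arrays limits the precision. Python 3.11.15 and pandas 2.3.3 were used for the remaining steps.

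Genes were named by this rule: all members with every probe, Sox9, and from each other list the 2 highest and 2 lowest means and any gene past 2-fold on both arrays. The members and lists were chosen with earlier results of these data known. Alternatives covered background, offset, normalization, starting values, the filter on dim probes, probe averaging, gene synonyms (0 probes added) and leaving out each array. The slide and scan are shared by both arrays and could not be fitted as a block.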

Additional observations from a re-analysis of the deposited data

Results flagged for a closer look

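For 5 of the 8 genes the 2 comparisons gave log2 ratios of opposite sign, and the difference was not tested, since each comparison has 1 array. Each was well above background in all 4 RNAs. Snai1 was at -0.43 in the genotype and 0.13 in the treatment comparison. Zeb1 was at -0.55 and 0.23. Vim was at -0.40 and 0.38. Twist2 was at -0.25 and 0.019, and Fn1 at 0.44 and -0.0087, so for both the second value lay next to 0. The sign of Fn1 rests on its brightest probe, since the other bright probes were positive on both arrays (0.56 and 0.07, and 0.77 and 0.23), as was the mean over the 3 (0.59 and 0.10).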

How the results depend on the processing

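Snai2 was higher with Sox9 on both arrays under every alternative that used both, with a mean log2 ratio of 1.39 to 1.70. On single arrays its log2 ratio was 1.54 (genotype) and 1.23 (treatment). Snai2 alone of the 8 genes passed 2-fold on both arrays, and with arrays scaled to 1 spread 0 genes did. The number of genes higher on both arrays was 1 on the scanner software's processed signals and 1 with the filter for both channels, which left Twist1 out, and 3 when a gene's probes were averaged, which added Fn1. The number lower on both arrays was 2 with an offset of 10, 2 without background subtraction and 2 with processed signals of the scanner software. On a single array the numbers higher ranged from 3 to 6, those lower from 2 to 5, and those past 2-fold stayed at 1. Median centring put the median of the treatment array at 0.38, and under it the mean turned to 0.049 for Snai1, -0.031 for Twist1, 0.13 for Twist2, 0.10 for Zeb1 and 0.42 for Vim. On the authors' processed values it turned to 0.0072 for Vim. On single arrays the values ranged from -0.43 to 0.13 for Snai1, from -0.25 to 0.019 for Twist2, from -0.55 to 0.23 for Zeb1, from -0.40 to 0.38 for Vim and from -0.0087 to 0.44 for Fn1. Probes called by limma numbered 522 with median centring, 68 on the authors' processed values, and 0 with an offset of 10, without background subtraction, with plain background subtraction, with arrays scaled to 1 spread, with processed signals of the scanner software and by the methods' t-test, against 2 in the reported analysis. Probes past 2-fold on both arrays numbered 148 without background subtraction, 600 on the scanner software's processed signals and 147 on the authors' processed values, against 95, and 298 to 382 on single arrays. The cause of these changes was not tested. No paired analysis was possible because each comparison has 1 array. Low brightness limits Twist1 and 4 member probes at background.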
